A study of Mus musculus with 9 samples.

Results

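Tyrosine and lipid phosphatases that limit cytokine signalling were followed in myeloid progenitor cells (MPs) from mice transplanted with multipotent progenitors (MPPs). The 9 genes were Ptpn1, Ptpn2, Ptpn6, Ptpn11, Ptpn22, Ptprc, Ptprj, Inpp5d and Inpp4b, taken by name from the 37980 genes of the deposited table through their Ensembl identifiers, and all 9 were found and passed the filter on low values. The samples were 4 NA MP and 5 WT MP samples, each of 100000 Lin-c-kit+Sca1- cells sorted from the bone marrow of irradiated adult C57BL/6 recipients. NA MPs carried the Nup98-Hoxa10hd fusion gene (NA), came from MPPs of NA LSL/+; Vav-Cre mice, in which Cre driven by Vav in blood cells switches on the fusion at the Rosa26 locus, and were sorted as Tdtomato+ donor cells. WT MPs had the WT genotype and were sorted by CD45.2 from mice that had received WT MPPs. The study's methods mark WT donor cells by CD45.1 and describe recipients as CD45.2+. If the WT donors of these samples were CD45.1+, a CD45.2 sort would hold recipient or helper cells and leave the donor cells out. Which cells the WT MPs were cannot be told from these sources, and every comparison with WT MPs carries that limit. The sample labels place the sort 3 months after transplantation and the methods 4 months. The number of mice behind each sample is not given in the sources used here, and p-values measure the spread between these samples.

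Cytokine receptors of blood progenitors signal through Jak kinases, Src family kinases and phosphatidylinositol 3-kinase (PI3K). Tyrosine phosphatases remove the phosphate groups that these kinases place on receptors, kinases and Stat proteins. Phosphoinositide phosphatases remove phosphate from the lipids that PI3K makes and so lower the recruitment of Akt and other kinases to the membrane. Most of the 9 genes are brakes in this scheme, but not all. Ptpn11 encodes SHP-2, which mainly promotes Ras signalling downstream of receptors, and Ptprc encodes CD45, the common leucocyte antigen, which both activates and restrains Src family kinases. Ptprj encodes CD148, which activates Src family kinases in platelets and macrophages.

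The values are normalized counts, that is RSEM gene counts divided by a size factor for each sample. Behind them lay between 5557718 and 8106141 reads per sample. Nup98, a partner of the fusion, was at 956 ± 81.8 normalized counts (SD) in the 4 NA MP samples and 599 ± 29.9 in the 5 WT MP samples. Hoxa10 was at 129 ± 17.7 in NA MPs and 8.05 ± 2.57 in WT MPs, and gene counts do not separate fusion from endogenous transcripts, whose parts were not tested. NA MP replicate 1 stood apart from the other NA MP samples on the second principal component (20.3 against -8.93 to -3.01, with 6.12% of the variance), and without it the same 5 phosphatase genes passed the test described below. Cell type markers also moved. They are counted as higher or lower at an adjusted p under 0.05 from limma. Of all 11987 tested genes 16.9% were higher and 17.3% lower at that threshold. The summed normalized count of 14 erythroid markers ran from 4747 to 6036 in NA MPs and from 9502 to 10815 in WT MPs, with 10 of 12 tested genes lower. For 11 pro-B and pre-B cell markers the sum ran from 1449 to 2619 in NA MPs and from 370.2 to 415 in WT MPs, with 11 of 11 tested genes higher. Of these, Pax5 and Vpreb3 reached the 10 normalized counts of the filter only in NA MP samples. Of the 7 mast cell and basophil markers 5 were higher and 1 lower (sums of 3755 to 4312 and of 2666 to 2924), and of the 9 neutrophil markers 5 were higher and none lower (sums of 155729 to 172585 and of 151932 to 158099). Mpo made up most of the neutrophil sums, with means of 107700 in NA MPs and 103900 in WT MPs, and did not pass (adjusted p = 0.175 from limma). Of 8 monocyte and macrophage markers 5 were higher and 1 lower (sums of 8188 to 9994 and of 8094 to 8444), and of 6 tested megakaryocyte markers 1 was higher and 2 were lower (sums of 1404 to 1629 and of 1403 to 1567). T and NK cell markers summed to at most 19.0 normalized counts in any sample, and Cd3e and Cd3g had no reads at all. The part of these cell types in the results on phosphatases was not tested, and in these bulk samples fewer cells of a type and less RNA per cell cannot be told apart.

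At an adjusted p-value under 0.05 from limma, 5 of the 9 phosphatase genes passed the test of NA MPs against WT MPs, 3 higher and 2 lower in NA MPs. Over all 11987 tested genes the share was 34.3%, with 16.9% higher and 17.3% lower, and the count of 5 in 9 is read against that background. The split of all calls was 2030 higher and 2077 lower, and 1666 higher and 2589 lower after correcting for GC content and length, which left the calls of these 9 genes as they were. The same 5 genes had no overlap between the groups, which held for 26.3% of all tested genes (13.5% higher and 12.8% lower). Ptpn22, Ptprc and Inpp5d rose, and Ptpn11 and Ptprj fell. All changes were small, and none of the 9 reached a 2-fold difference. The median log2 fold change of the 9 genes was 0.08 beside -0.0081 over all tested genes, and the median of its absolute size was 0.16 beside 0.12.

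**Figure D1:**
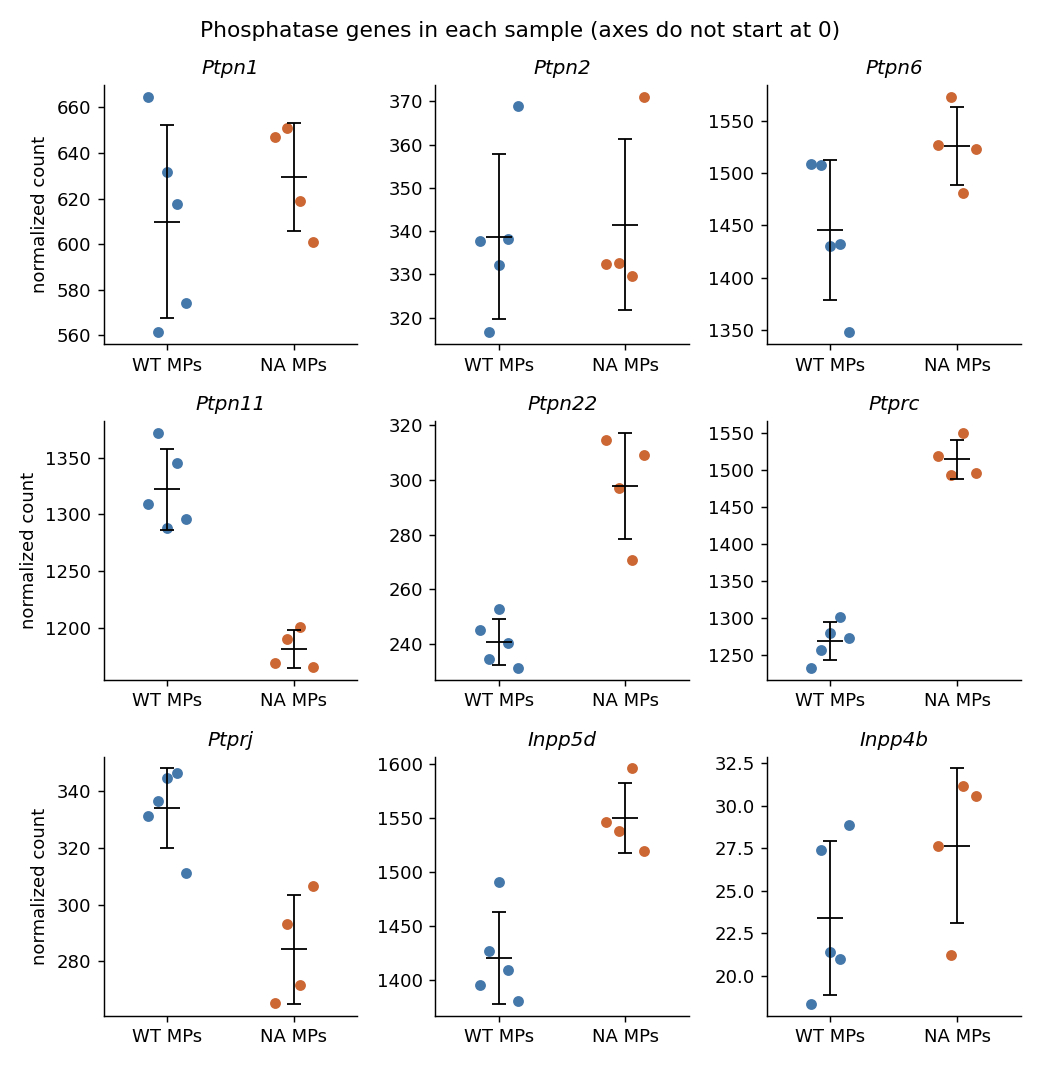
Normalized count (vertical axes, which do not start at 0) of the 9 phosphatase genes in each WT MP sample (blue) and NA MP sample (orange), with the group mean and SD in black. The groups are apart for Ptpn11, Ptpn22, Ptprc, Ptprj and Inpp5d and overlap for the other 4 genes.

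The sequences before 4 transcription starts are shown because these starts belong to genes that rose (Ptpn22 and Inpp5d) and fell (Ptpn11), so that a reader can set their promoters side by side. They are the 250 bases upstream of RefSeq starts on GRCm38.p6, in the direction of transcription, from those genes past the threshold whose window meets no exon in GENCODE M21. Capitals mark matches, on either strand, to GAGGAA, the core of many sites bound by the myeloid factor Spi1, to TTCNNNGAA, the letters of a Stat site, to TGATTTA, of a Hox and Pbx site, and to AGATAA, of a GATA site.
Ptpn22, chr3:103859545-103859794, + strand: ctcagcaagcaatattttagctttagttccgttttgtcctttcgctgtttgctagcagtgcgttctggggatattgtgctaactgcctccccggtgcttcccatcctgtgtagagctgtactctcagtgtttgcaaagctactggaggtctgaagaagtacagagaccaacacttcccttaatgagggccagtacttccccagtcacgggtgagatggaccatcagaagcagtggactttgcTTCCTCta
Ptpn22, later start, chr3:103860027-103860276, + strand: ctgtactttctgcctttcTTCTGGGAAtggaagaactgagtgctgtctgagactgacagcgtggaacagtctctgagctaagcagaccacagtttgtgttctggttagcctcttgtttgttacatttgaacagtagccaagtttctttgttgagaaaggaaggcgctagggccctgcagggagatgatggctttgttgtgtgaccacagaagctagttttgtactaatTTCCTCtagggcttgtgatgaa
Inpp5d, chr1:87620062-87620311, + strand: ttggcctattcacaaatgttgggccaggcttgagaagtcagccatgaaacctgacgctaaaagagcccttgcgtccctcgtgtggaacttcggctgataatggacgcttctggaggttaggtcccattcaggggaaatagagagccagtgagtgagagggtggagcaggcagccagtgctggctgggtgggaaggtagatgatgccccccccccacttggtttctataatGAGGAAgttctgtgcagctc
Ptpn11, chr5:121191398-121191647, - strand: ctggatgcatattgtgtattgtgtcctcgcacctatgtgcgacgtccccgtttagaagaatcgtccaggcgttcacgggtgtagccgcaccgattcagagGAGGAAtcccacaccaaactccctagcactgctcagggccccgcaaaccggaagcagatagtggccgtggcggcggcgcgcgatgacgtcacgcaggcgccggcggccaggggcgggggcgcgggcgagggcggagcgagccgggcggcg

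Base composition varied among these windows. The Ptpn11 window was 66.8% G and C with 31 CpG dinucleotides, whereas the windows of Ptpn22 (49.2% and 5 for the first start) and Inpp5d (54.4% and 5) lay near the medians of all RefSeq windows (52.4% and 6). The later start of Ptpn22 had 46.0% and 2. Windows that meet exons are not shown. Those of Ptprj, which fell, had 44.8% with 3 CpG and 79.2% with 34. Those of Ptprc, which rose, had 36.8% with 2 and 31.6% with 4. A GAGGAA match began 8 bases before the first start of Ptpn22, 20 bases before that of Inpp5d and 150 bases before that of Ptpn11. Over the 11 windows of 8 phosphatase genes, 8 windows, from 6 genes, held GAGGAA, beside 23.3% of 32851 windows in all. Ptpn22, Ptprc and Ptprj had more than a single window, those of Ptprc overlap, and none of Ptpn2 was examined. TTCNNNGAA stood in 2 of the 11 windows (7.02% of all), AGATAA in 1 (9.99%) and TGATTTA in 0 (2.61%). These matches are letters in a short window and were not tested as sites.

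Ptprc and Ptprj encode receptor phosphatases. CD45, the product of Ptprc, removes the inhibitory phosphate from the tail of Src family kinases in nearly all white blood cells. Ptprc (ENSMUSG00000026395, chr1:138062861-138175708 on the minus strand of GRCm38) had 1519, 1494, 1551 and 1497 normalized counts in NA MP replicates 1 to 4. The 5 WT MP samples had 1233, 1258, 1280, 1302 and 1274. All 4 NA MP samples lay above all 5 WT MP samples, and each group varied by under 3%, with coefficients of variation of 1.73% in NA MPs and 2.01% in WT MPs. The rise was 19.4%, a log2 fold change of 0.26 (standard error 0.033, 95% interval 0.19 to 0.32, adjusted p = 2.74e-08 from limma). CD45.2, by which the WT MPs but not the NA MPs were sorted, is a form of CD45, the product of this gene. The part of the sort in this difference was not tested. Ptprj (ENSMUSG00000025314, chr2:90429754-90580647 on the minus strand), which encodes CD148, an activator of Src family kinases in platelets and macrophages, moved the other way. Its normalized counts were 265.3, 293.2, 271.7 and 306.7 in NA MPs and 331.3, 336.3, 344.4, 346.2 and 311.2 in WT MPs. The groups came close, at 306.7 for the highest NA MP sample and 311.2 for the lowest WT MP sample, but did not overlap. Ptprj fell by 14.9%, a log2 fold change of -0.23 (standard error 0.060, 95% interval -0.35 to -0.11, adjusted p = 0.00191 from limma).

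SHP-1 and SHP-2, the products of Ptpn6 and Ptpn11, are close relatives with paired SH2 domains. SHP-1 is recruited by inhibitory receptors and restrains myeloid growth, while SHP-2 passes on growth factor signals. Ptpn11 (ENSMUSG00000043733, chr5:121130533-121191397 on the minus strand) had normalized counts of 1169, 1190, 1201 and 1166 in NA MPs. In WT MPs it had 1309, 1372, 1288, 1345 and 1296, all above the NA MP samples. Ptpn11 fell by 10.6%, a log2 fold change of -0.16 (standard error 0.034, 95% interval -0.23 to -0.093, adjusted p = 0.000191 from limma). Ptpn6 (ENSMUSG00000004266, chr6:124720707-124738714 on the minus strand) had 1527, 1573, 1481 and 1523 normalized counts in NA MPs and 1509, 1508, 1430, 1432 and 1348 in WT MPs. The lowest NA MP sample, at 1481, lay below the highest WT MP samples. Its log2 fold change of 0.08 (95% interval 0.0086 to 0.15) did not pass the threshold (adjusted p = 0.0763 from limma). Of 21 alternative settings 1 took it past, that without WT MP replicate 1 (adjusted p = 0.0361 from limma), and correcting for GC content and length brought it to -0.016. A 195-base stretch of its exons is shared with Gm20531, an antisense gene with a mean of 41.4 normalized counts, and whether the counting used strand is not given in the sources used here.

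The balance of this pair was also read within each sample, where scaling between samples cancels. The ratio of Ptpn6 to Ptpn11 normalized counts was 1.31, 1.32, 1.23 and 1.30 in NA MPs and 1.15, 1.10, 1.11, 1.06 and 1.04 in WT MPs. The groups were fully apart. The ratio was 1.18-fold higher in NA MPs (two-sided exact permutation test, p = 0.0159, and 0.0317 adjusted over the 4 ratios computed). That p is the smallest that 4 against 5 samples allow. The adjusted value depends on the ratio of Inpp5d to Inppl1, given below, having the same p. The pairs were chosen with earlier results of these data known. With any of the 9 samples left out the adjusted p of Ptpn6 to Ptpn11 was between 0.0571 and 0.0714 (exact permutation test). The call was lost each time, while the Ptpn6 to Ptpn11 ratio stayed higher in NA MPs.

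Ptpn22 encodes PEP, a phosphatase that works with the kinase Csk to switch off Src family kinases, mainly described in lymphocytes. Ptpn22 (ENSMUSG00000027843, chr3:103859795-103912247 on the plus strand) had normalized counts of 314.5, 297.2, 270.6 and 309.1 in NA MPs and 245, 234.4, 252.7, 240.1 and 231.1 in WT MPs. The lowest NA MP sample, replicate 3 with 270.6, was above the highest WT MP sample. The rise was 23.5%, a log2 fold change of 0.30 (standard error 0.063, 95% interval 0.18 to 0.43, adjusted p = 0.000152 from limma). The pro-B and pre-B cell marker sums were 1449, 2593, 2619 and 1945 in NA MP replicates 1 to 4, beside 370.2 to 415 in WT MPs. Like Ptpn22, this sum was higher in every NA MP sample than in any WT MP sample. Within NA MPs the order was opposite. Replicate 1 had the highest Ptpn22 (314.5) and the lowest sum (1449), and replicate 3 the lowest Ptpn22 (270.6) and the highest sum (2619). The part of such cells in the level of Ptpn22 was not tested.

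Ptpn1 and Ptpn2 encode PTP1B and TC-PTP, related phosphatases that act on Jak kinases and Stat proteins. Neither passed the threshold. Ptpn1 (ENSMUSG00000027540, chr2:167932057-167979385 on the plus strand) had 647, 651.1, 619.1 and 600.9 normalized counts in NA MPs and 664.7, 561.3, 631.7, 617.4 and 574 in WT MPs. All NA MP samples lay within the range of the WT MP samples. Its log2 fold change was 0.05 (95% interval -0.048 to 0.14, adjusted p = 0.472 from limma). Ptpn2 (ENSMUSG00000024539, chr18:67665511-67724595 on the minus strand) had 332.5, 332.6, 329.6 and 371.1 in NA MPs and 337.8, 316.6, 332.1, 338.2 and 369 in WT MPs. Each group held a single high sample. The log2 fold change of Ptpn2 was 0.012 (95% interval -0.11 to 0.13, adjusted p = 0.904 from limma), so a change in either direction of up to about that interval cannot be told from these data. Within samples, the ratio of Ptpn1 to Ptpn2 was 1.85 ± 0.158 in the 4 NA MP samples and 1.80 ± 0.158 in the 5 WT MP samples (mean ± SD). This difference did not pass the two-sided exact permutation test (p = 0.667, adjusted 0.667).

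**Figure D2:**
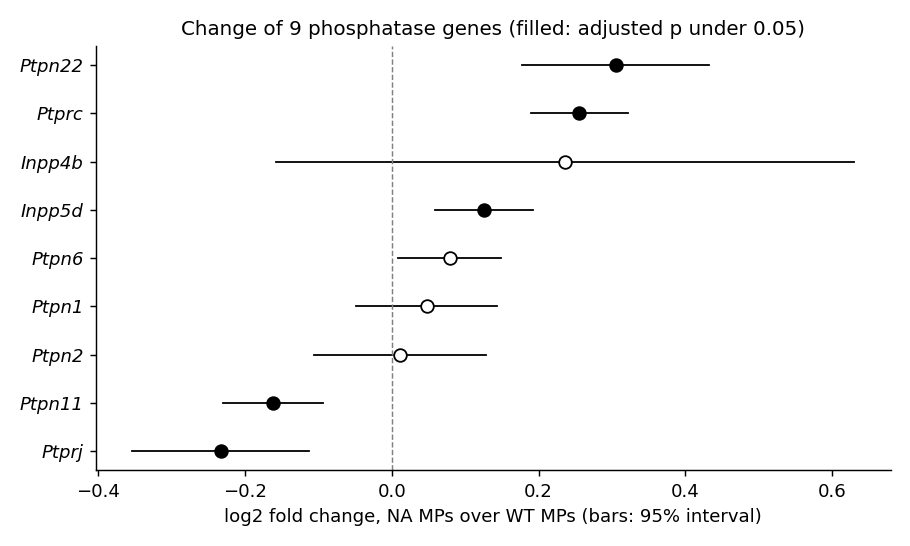
Log2 fold change of each of the 9 phosphatase genes in NA MPs over WT MPs (horizontal axis), with its 95% interval from limma. Filled points passed an adjusted p of 0.05, with Ptpn22, Ptprc and Inpp5d to the right of 0 and Ptpn11 and Ptprj to the left, and Inpp4b, with 17 to 37 reads per sample, has the widest interval.

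Inpp5d and Inpp4b encode phosphoinositide phosphatases. SHIP-1, the product of Inpp5d, is the blood cell enzyme that turns the main PI3K lipid into phosphatidylinositol bisphosphate, and INPP4B works on that next lipid. Inpp5d (ENSMUSG00000026288, chr1:87620312-87720507 on the plus strand) had 1546, 1538, 1596 and 1520 normalized counts in NA MPs and 1396, 1427, 1491, 1409 and 1381 in WT MPs. The groups did not overlap, with WT MP replicate 3 at 1491 nearest to the NA MP samples. Inpp5d rose by 9.10%, a log2 fold change of 0.13 (standard error 0.033, 95% interval 0.059 to 0.19, adjusted p = 0.00248 from limma). Inpp4b (ENSMUSG00000037940, chr8:81342556-82127914 on the plus strand) was read far less often, with 17 to 37 reads per sample. Its normalized counts were 27.6, 21.2, 31.2 and 30.6 in NA MPs and 18.4, 27.4, 21.4, 21.01 and 28.9 in WT MPs. The groups overlapped widely, and at this depth a log2 fold change of 0.24 had a 95% interval of -0.16 to 0.63 (adjusted p = 0.380 from limma).

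SHIP-2, the product of Inppl1, is the widely expressed relative of SHIP-1. Inppl1 (ENSMUSG00000032737, chr7:101822632-101838229 on the minus strand) is not among the 9 genes, but it moved far more than any of them. It had 194.5, 215.4, 211.5 and 224.0 normalized counts in NA MPs and 46.4, 58.2, 52.0, 41.0 and 55.0 in WT MPs. The lowest NA MP sample was over 3 times the highest WT MP sample, and the log2 fold change was 2.05 (standard error 0.10, adjusted p = 2.80e-20 from limma). Exons of Inppl1 overlap those of Phox2a, which had no reads, and of Gm10602, with a mean of 2.43 normalized counts, both on the opposite strand.

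The within-sample ratio of Inpp5d to Inppl1 normalized counts was 7.93, 7.13, 7.53 and 6.77 in NA MPs and 29.8, 24.3, 28.4, 33.9 and 24.9 in WT MPs. No NA MP sample came near a WT MP sample, and the ratio in NA MPs was 0.261 times that in WT MPs (two-sided exact permutation test, p = 0.0159, adjusted 0.0317). This call too was lost with each sample left out (adjusted p of 0.0571 to 0.0714, exact permutation test). As for Ptpn6 to Ptpn11, no smaller values were possible there, so this loss was fixed in advance. These ratios are of counts and not per length, so their difference between groups can be read and their size cannot.

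**Figure D3:**
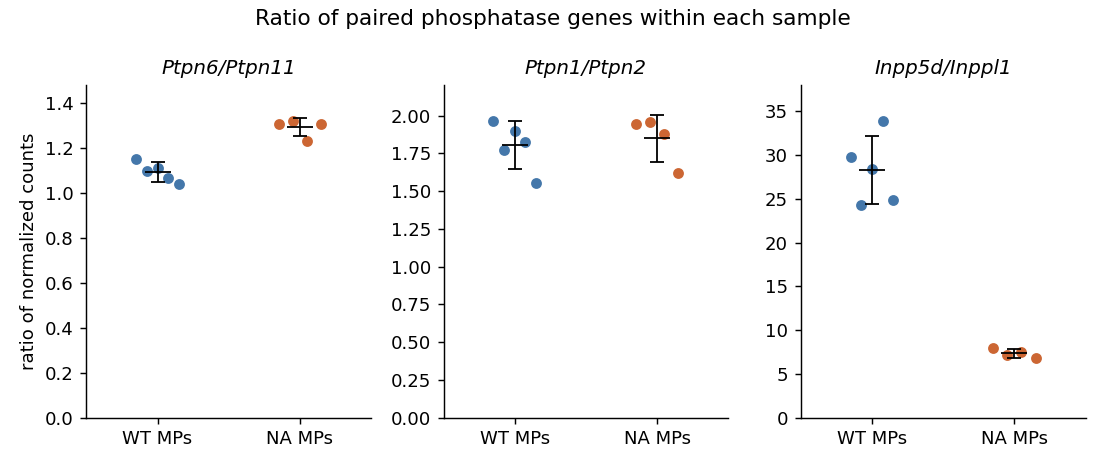
Ratio of normalized counts of 3 gene pairs within each WT MP sample (blue) and NA MP sample (orange), with the group mean and SD in black and axes from 0. Ptpn6/Ptpn11 is higher in every NA MP sample and Inpp5d/Inppl1 lower, between 6.77 and 7.93 against 24.3 to 33.9, while Ptpn1/Ptpn2 overlaps between the groups.

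To compare levels between genes, the deposited values were scaled to CPM in each sample and divided by the length in kb of the longest coding transcript in GENCODE M21. On this scale Ptpn6 was highest in WT MPs, at 94.5 ± 4.24 (SD, n = 5), followed by Inpp5d at 43.4 ± 1.26, Ptprc at 37.7 ± 0.746 and Ptpn11 at 35.6 ± 0.923. Ptpn1 (21.8 ± 1.5) and Ptpn2 (19.2 ± 1.11) came next, then Ptpn22 (13.2 ± 0.457) and Ptprj (6.60 ± 0.264), and Inpp4b was lowest at 0.438 ± 0.0849. The WT MP samples of Ptprc and Ptpn11 overlapped in level, as did those of Ptpn1 and Ptpn2, and all other neighbours in this order were apart. In NA MPs Ptprc, at 44.6 ± 0.642 (SD, n = 4), stood near Inpp5d at 46.9 ± 0.844, and Ptpn11 stood at 31.5 ± 0.391. The place of Ptprc and the order of Ptpn22 and Ptprj depend on the length used. All annotated exons of Ptprc span 18313 bases against 5074 for its longest coding transcript. Per kb of all annotated exons Ptprc was the sixth of the 9 genes in WT MPs, at 10.5 ± 0.207. On that scale Ptprj (6.03 ± 0.241) stood above Ptpn22 (5.36 ± 0.185) in WT MPs. The authors' transcript lengths are not given in the sources used here.

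**Figure D4:**
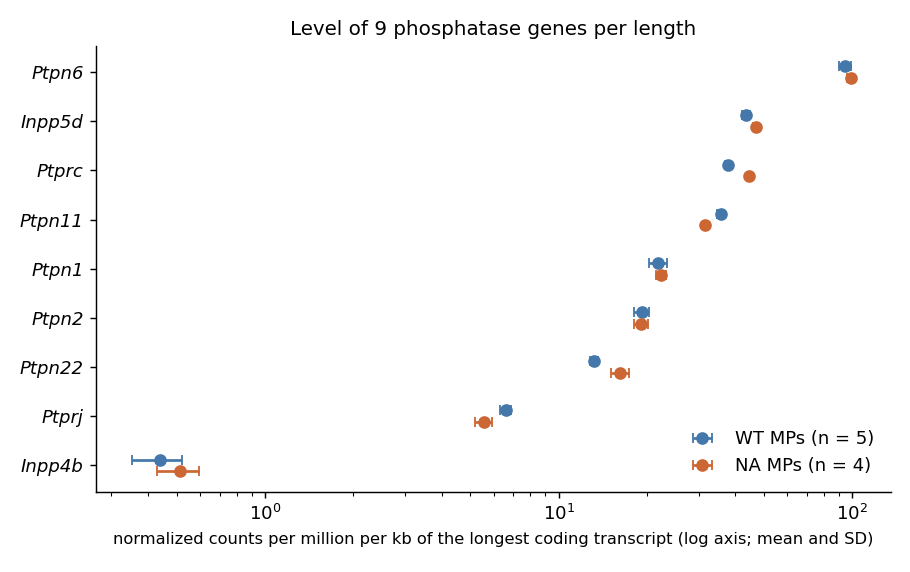
Level of each phosphatase gene as CPM of the normalized counts per kb of its longest coding transcript (horizontal log axis), mean and SD in WT MPs (blue, n = 5) and NA MPs (orange, n = 4). Levels run from under 1 for Inpp4b to near 100 for Ptpn6, and Ptprc and Ptpn11, like Ptpn1 and Ptpn2, overlap in WT MPs.

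The other tyrosine phosphatases were followed as lists. Of 12 further non-receptor members of the Ptpn family 10 were tested, of which 2 were higher and 4 lower past the threshold (median log2 fold change -0.09). Ptpn14 and Ptpn13, phosphatases mostly described outside blood, fell from 121 ± 8.67 to 39.7 ± 3.97 and from 23.9 ± 2.30 to 10.8 ± 4.13 normalized counts, log2 fold changes of -1.59 (adjusted p = 2.22e-15 from limma) and -1.16 (adjusted p = 0.000244). Ptpn12, which encodes PTP-PEST, fell by 0.16 on the log2 scale, and Ptpn18 rose by 0.45. Among 6 tested receptor phosphatases of 19 listed, 2 were higher and 1 lower. Ptpru fell (-0.71), Ptprs (0.27) and Ptpre (0.09) rose, and Ptprf, with a log2 fold change of 0.65 (adjusted p = 0.0550 from limma), did not pass the threshold. Of 25 tested phosphoinositide phosphatases 4 were higher and 4 lower, with a median of 0.02. Besides Inppl1 these included Inpp5j (0.94), Inpp5k (0.27) and Mtmr4 (-0.45).

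Genes on which the phosphatases act, or with which they work, were described in the same way. Of 11 tested Jak and Stat genes 5 were higher and none lower (median -0.03). Jak3, the kinase of the common gamma chain receptors, had 822 ± 17.4 normalized counts in NA MPs and 591 ± 26.3 in WT MPs and rose by a log2 fold change of 0.48 (adjusted p = 2.17e-12 from limma). Stat3 (0.28), Stat4 (0.33) and Stat5b (0.15) rose as well, whereas Jak2 (-0.04, adjusted p = 0.542 from limma) did not pass the threshold. Of 17 tested cytokine receptors 7 were higher and 4 lower. Il7r, the receptor of early lymphoid cells, rose (2.99), and Epor (-0.99) and Il6st (-0.42) fell, while Kit and Csf3r had log2 fold changes of -0.04 and -0.05 that did not pass. Epor is also in the erythroid marker list, and the part of lymphoid and erythroid cells in these changes was not tested.

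The 9 tested genes of the Src family with Csk, Syk and Btk held 6 that were higher and none lower (median 0.12 on the log2 scale). Lck (2.16) and Fyn (0.61), kinases best known from lymphocytes, had the smallest adjusted p-values. Csk, the partner of PEP, rose by a log2 fold change of 0.12 (95% interval 0.049 to 0.18, adjusted p = 0.00529 from limma), although its groups overlapped, and Syk rose by 0.14. Lyn, the Src family kinase of myeloid cells, had a log2 fold change of 0.11 and an adjusted p of 0.0540 from limma. Of 13 tested PI3K and Akt genes 2 were higher and 2 lower, with a median of -0.02. Pik3cd (0.11) and Pik3ap1 (0.21) rose, and Pik3cb (-0.36) and Pik3r2 (-0.19) fell.

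Inhibitory receptors that recruit SHP-1, SHP-2 or SHIP-1 through ITIM motifs were higher in 7 of 14 tested cases and lower in none (median 0.11 on the log2 scale). Pecam1 had 985 ± 25.8 normalized counts in NA MPs and 772 ± 15.2 in WT MPs and rose by a log2 fold change of 0.35 (adjusted p = 3.47e-10 from limma). Cd72 (0.59), a B cell receptor of this kind, Pirb (0.95) and Sirpa (0.12) rose too. Of 13 tested adaptors and docking proteins 5 were higher and 3 lower, with a median of 0.11. Ptprcap, whose product binds CD45, had 599.8 ± 34.2 normalized counts in NA MPs and 385 ± 9.81 in WT MPs, 0.64 higher on the log2 scale (adjusted p = 3.45e-14 from limma) beside 0.26 for Ptprc. The docking protein genes Dok2 (0.82) and Dok3 (0.47) rose, and Sos1 (-0.31) fell. The share past the threshold was 60.0% of the other non-receptor phosphatases, 50% of the receptor phosphatases, 32.0% of the phosphoinositide phosphatases, 45.5% of the Jak and Stat genes, 64.7% of the cytokine receptors, 66.7% of the Src family list, 30.8% of the PI3K list, 50% of the inhibitory receptors and 61.5% of the adaptors, beside the 34.3% of all tested genes.

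**Figure D5:**
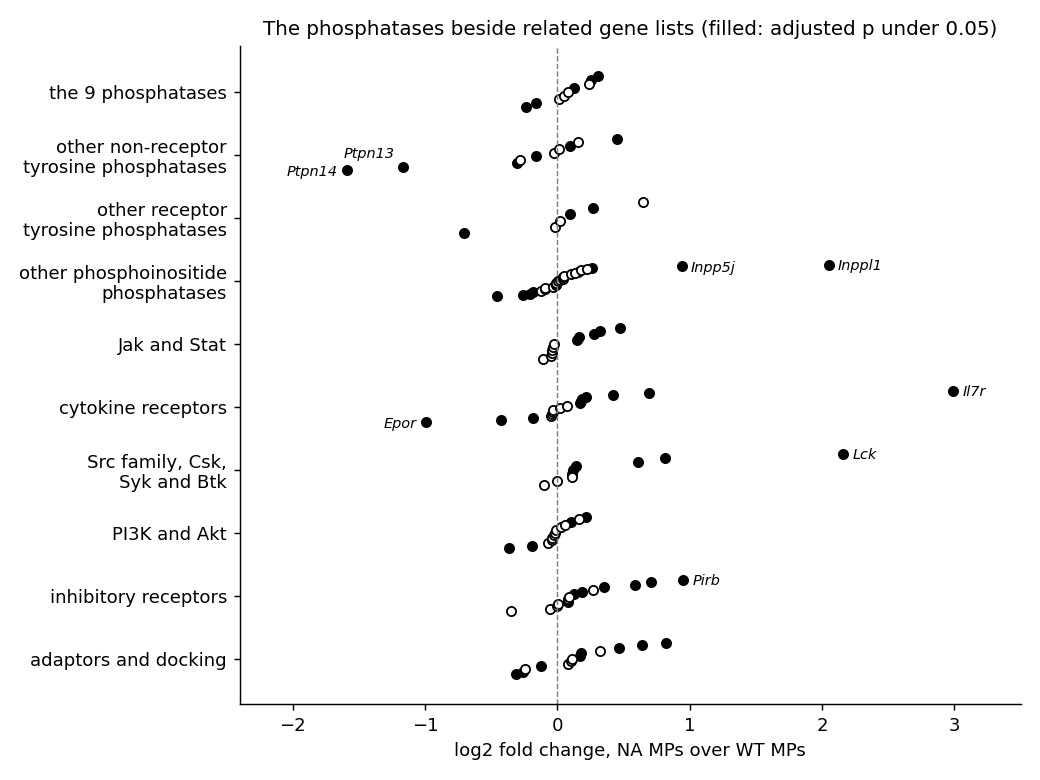
Log2 fold change in NA MPs over WT MPs (horizontal axis) of the 9 phosphatases and of the tested genes reported here from 9 related lists, a point for each gene shown, filled where the adjusted p was under 0.05 and named where the change was over 0.85. The 9 phosphatases lie between -0.23 and 0.30, while single genes of other lists reach -1.59 (Ptpn14) and 2.99 (Il7r).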

How the data were processed

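The authors prepared polyA RNA libraries, used RSEM and DESeq2 for alignment, normalization and testing, and name mm10 in the submitters' processing notes. Versions, annotation and use of strand are not given in the sources used here. The table they deposited holds normalized count signal and not raw counts. In each sample between 97.2% and 97.6% of the values above 0 were whole multiples (within 0.01 reads) of a single step, and the step ran from 0.827 to 1.20 between samples, close to the reciprocal of a median-of-ratios size factor (product 0.9997 to 1.0026). The values were therefore tested as deposited, on the log2(value + 1) scale, with limma 3.58.1 in R 4.3.3 (variance trend, robust) instead of the count test first planned. Fold changes are on that scale, which understates changes of low genes. Genes with at least 10 normalized counts in at least 4 samples were tested, 11987 in all (Benjamini-Hochberg adjusted, threshold 0.05).

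Dividing by the step gave the reads per sample. Symbols were looked up by Ensembl identifier and found for 32916 of 37980 genes. Positions and lengths came from GENCODE M21 (GRCm38), and promoters from RefSeq. Ratios of 4 gene pairs used a pseudocount of 0.5 and exact two-sided permutation tests over 126 arrangements. Replicates of a group differed by more than sampling noise (chi-square per degree of freedom 1.21 to 2.82). Replicate numbers 1 to 4 occur in both groups, for different mice, and same-numbered samples did not deviate together (correlations -0.020 to 0.057), so the number was a block only in an alternative on the 8 samples with a shared number. The genes, lists and ratios were chosen with earlier results of these data known. Named are the 9 genes, up to 4 genes of each other list with the smallest adjusted p, and Inppl1, Jak2, Lyn, Csk, Kit and Csf3r, except for genes not reported here, which still count in the lists and in the 4 ratios. The alternatives were other scalings, filters and pseudocounts, no robust option, a threshold of 0.01, the block, a correction for GC content and length, leaving out each sample, and, chosen after seeing the data, 2 other pseudocounts and limma's voom weights. The fits were tested on simulated data.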

Additional observations from a re-analysis of the deposited data

Results flagged for a closer look

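Among 26 groups of values (9 genes and 4 ratios in NA MPs and in WT MPs) 1 held a sample far from the others, where chance gives about 1.3. Ptpn2 had 371 normalized counts in NA MP replicate 4 against 329.6 to 332.6 in the other 3 NA MP samples, a gap of 0.926 of the group's range. Without that sample the log2 fold change of Ptpn2 was -0.029 (adjusted p = 0.766 from limma).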

How the results depend on the processing

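The calls of Ptpn11, Ptpn22, Ptprc, Ptprj, Inpp5d and Inppl1 kept their direction and stayed past the threshold in all 21 alternatives of the fit across genes, with the highest adjusted p for Inpp5d (0.0486 from limma, with the replicate block and the correction for GC content and length together). The number of the 9 genes past the threshold was 5 in the main analysis and from 5 to 6 in the alternatives. With the replicate number as a block (8 samples, without WT MP replicate 5) it was 5, and 3664 of all genes passed in place of 4107. The block changed no call among the 9 genes. The correction for GC content and length moved all calls from 2030 higher and 2077 lower to 1666 higher and 2589 lower.

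Ptpn1, Ptpn2 and Ptpn6, none past the threshold, changed sign in some alternatives, and the cause was not tested. The log2 fold changes were -0.025 for Ptpn1 and -0.016 for Ptpn6 with the correction for GC content and length and -0.047 and -0.040 when the replicate block was added. For Ptpn2 they were -0.0031 with library size scaling, and between -0.029 (without NA MP replicate 4) and 0.043 (without WT MP replicate 5) with each sample left out, also below 0 without WT MP replicate 2 (-0.012). With each sample left out the log2 difference ran from 0.22 to 0.26 for Ptpn6/Ptpn11, from -1.99 to -1.87 for Inpp5d/Inppl1 and from -0.016 to 0.099 for Ptpn1/Ptpn2. The first and second of these lost their calls in all 9 cases, with adjusted p-values of 0.0571 or 0.0714 from the exact permutation test, the smallest that 4 against 4 and 3 against 5 samples allow where 2 of 4 ratios share the lowest p. DESeq2 was not run, as the table holds no raw counts, and for the same reason rounding was varied only for the ratios, where it changed no call. The ratios were not computed with the correction for GC content and length. With it the log2 fold change was -0.016 for Ptpn6 and -0.17 for Ptpn11, beside 0.08 and -0.16 without it. Depth limits Inpp4b most.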
